A study of Mus musculus with 2 samples.

Results

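The 10 genes described here are markers used to tell the lung identity of a tumor cell from a dedifferentiated or gastric-like state. They were taken by gene symbol, and all 10 were found among the 23183 genes of the deposited tables. 3 of them are lung genes proper. *Nkx2-1* encodes the transcription factor that specifies and maintains lung epithelium, *Sftpc* encodes surfactant protein C of alveolar type 2 cells, and *Scgb1a1* encodes the secretoglobin of airway club cells. *Foxa1*, *Foxa2* and *Gata6* encode factors shared by the endodermal organs. *Hnf4a* encodes a nuclear receptor of stomach, intestine and liver, *Sox2* and *Sox9* encode factors of airway and distal tip progenitors, and *Hmga2* encodes an embryonic chromatin protein that is low in most adult tissues.

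In mouse lung tumors driven by oncogenic *K-Ras*, Nkx2-1 and the Foxa factors act together on alveolar genes. Where Nkx2-1 is lost, the Foxa factors bind at gastric genes instead, Hnf4a comes on, and *Hmga2* marks the advanced and metastatic cells. These statements are background and not results of the libraries described here.

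The study placed RNA of mouse lung cancer cells in 2 libraries, 1 for each state of the same line, KPR- and KPR restored. The line was grown from lung tumors of mice with *K-Ras* LSL-G12D/+, *p53* flox/flox and *Runx3* flox/FSF alleles, a Tomato reporter and the FlpERT2 recombinase, so both libraries share activated *K-Ras* and deleted *p53*. Tumors were started by nasal adenovirus carrying Cre under the *CMV* promoter, which does not select a lung cell type, and the number of mice or clones behind the line is not given in the sources used here. In KPR- cells (labelled 0h and RUNX3 -/-) a *Frt-Stop-Frt* cassette silences the remaining *Runx3* allele. 4-OHT, an active tamoxifen metabolite, switches on FlpERT2, which removes the cassette to give KPR restored cells (labelled 16h and RUNX3 -/+). The records list 1 μM 4-OHT for both libraries. Time in culture, 4-OHT and *Runx3* restoration cannot be told apart in this design. With 1 library per condition no difference was set against variation between cultures, no p-value was computed, and every direction below compares the libraries as labelled. *Runx3* itself stood at 0.348 FPKM in KPR- against 0.349 FPKM in KPR restored, so its level per gene does not check the labels.

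Values are FPKM, fragment numbers that the authors scaled to transcript length and library depth. The low values step in whole fragments, from which the depths were estimated as 21.9 M (KPR-) and 22.3 M fragments (KPR restored). Fragments behind each value were estimated from these depths, and each 95% interval below covers counting error only, since reads without molecular identifiers are not independent molecules. A difference is the log2(FPKM + 0.005) of KPR restored less that of KPR-, and 0.5 either way was the threshold. Genes whose FPKM averaged 1 or more over both libraries are called expressed. There were 11231 of them, and their differences had a median of 0.0086 and quartiles of -0.23 and 0.27.

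Promoter windows, from 250 bases before to 50 after a start, were found for 6 of the 10 genes in RefSeq (GRCm38.p6), as 9 windows. They belong to *Nkx2-1*, *Foxa1*, *Foxa2*, *Hnf4a*, *Sox2* and *Hmga2*. The windows of the most abundant gene, *Hmga2*, of the gastric factor *Hnf4a* and of its partner *Foxa1* are shown, to set the sequence at the start of these active genes beside their levels. Capitals mark matches on either strand to short core motifs, namely RUNX (TGTGGT), forkhead (TGTTTAC), SOX (AACAAAG), NKX2 (CACTTGA), HNF1 (GTTAAT) and HNF4 (CAAAGTCC). The windows lie at chr12:57546062-57546361 (minus strand), chr2:163506607-163506906 and chr2:163546905-163547204 (plus strand) and chr10:120476420-120476719 (minus strand).
Foxa1: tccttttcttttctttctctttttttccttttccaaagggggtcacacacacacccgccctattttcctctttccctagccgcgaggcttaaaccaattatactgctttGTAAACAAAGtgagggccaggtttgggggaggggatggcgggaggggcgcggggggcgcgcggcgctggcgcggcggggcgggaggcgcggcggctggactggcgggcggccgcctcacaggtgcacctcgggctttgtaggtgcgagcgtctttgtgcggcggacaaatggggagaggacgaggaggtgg
Hnf4a upstream start: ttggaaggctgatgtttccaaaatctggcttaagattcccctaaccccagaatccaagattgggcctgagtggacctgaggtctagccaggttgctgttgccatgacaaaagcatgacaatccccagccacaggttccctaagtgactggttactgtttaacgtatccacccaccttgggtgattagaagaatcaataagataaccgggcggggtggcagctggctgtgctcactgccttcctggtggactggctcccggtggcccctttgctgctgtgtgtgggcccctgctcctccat
Hnf4a downstream start: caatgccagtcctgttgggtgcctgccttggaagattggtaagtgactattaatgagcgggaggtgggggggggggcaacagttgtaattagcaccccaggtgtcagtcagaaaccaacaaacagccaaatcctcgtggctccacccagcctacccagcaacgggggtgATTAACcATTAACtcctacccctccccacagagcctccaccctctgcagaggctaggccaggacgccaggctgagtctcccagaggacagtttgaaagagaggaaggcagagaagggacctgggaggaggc
Hmga2: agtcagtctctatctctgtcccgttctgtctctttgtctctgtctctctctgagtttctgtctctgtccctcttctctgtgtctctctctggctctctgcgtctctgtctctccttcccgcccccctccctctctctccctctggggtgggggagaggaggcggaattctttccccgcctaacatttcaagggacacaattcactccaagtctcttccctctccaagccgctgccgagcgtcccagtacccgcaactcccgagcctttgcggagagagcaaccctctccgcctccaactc

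The *Foxa1* window holds a forkhead match on the strand opposite to the printed one and a SOX match on the printed strand, which overlap and begin 141 and 138 bases before the start. A forkhead match is found in 3.65% and a SOX match in 5.85% of all 32851 windows of this length. The 2 *Hnf4a* starts are 40298 bases apart. They correspond to the alternative promoters of this gene, of which the upstream start is the one known from stomach and pancreas and the downstream start the one known from liver. Of these windows, the downstream one holds 2 HNF1 matches, which begin 81 and 74 bases before the start on the strand opposite to the printed one, and the upstream one holds none. 7.1% of all windows hold at least 1 such match. The deposited value is per gene, so it does not say which start was used. The other HNF1 matches were 1 in the third *Foxa2* window and 1 in the *Sox2* window. The *Hmga2* window is rich in pyrimidines, which make up 70.8% of its 250 bases before the start, and it holds none of the searched motifs. The RUNX letters are in none of the 9 windows, against 16.8% of all windows, and neither are the NKX2 (3.06%) and HNF4 (1.42%) letters. A match is only a description of the letters, and their absence from these windows says nothing of binding elsewhere.

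The lung genes proper were at or near 0 in both libraries. *Sftpc* and *Scgb1a1* were listed at 0 in both. For these short transcripts of 792 and 476 bases, 3 fragments would have given 0.237 and 0.521 FPKM with the depth of KPR-, or 0.232 and 0.512 FPKM with that of KPR restored, so levels under these limits were not detectable. *Nkx2-1* (chr12:56531958-56536908, minus strand) had 0.0444 FPKM in KPR- against 0.0216 FPKM in KPR restored, from about 3 fragments and 1 fragment. These estimates are rounded to whole fragments, that of KPR- upward, and with the shortest coding transcript they are 2 and 1. Both FPKM values lie under the levels that 3 fragments would give for *Nkx2-1*, 0.0528 and 0.0518 FPKM. The difference between them, given below with its interval, thus shows no direction. Cells labelled as lung cancer thus held almost no RNA of the defining factor of lung epithelium in either library. In bulk RNA, fewer cells that express a gene and less RNA per cell cannot be told apart.

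The endoderm and gastric factors were present at levels above those of most of the 23183 genes. Of these, 7460 in KPR- and 7524 in KPR restored were listed at 0, so such shares are not shares of the expressed genes. *Foxa2* and *Gata6*, described below, lay above 72.3% and 70.3% of all genes in KPR-, and above 78.0% and 74.3% in KPR restored. *Foxa1* (chr12:57540628-57546916, minus strand), a forkhead pioneer factor, had 29.5 FPKM in KPR- against 32.2 FPKM in KPR restored. *Hnf4a* (chr2:163506808-163572910, plus strand) had 28.8 FPKM and 34.4 FPKM. These levels lay above those of 86.7% and 86.4% of all genes in KPR-, and above those of 87.6% and 88.3% in KPR restored. Within KPR-, *Hnf4a* stood at 649 times the FPKM of *Nkx2-1*, with an interval of 222 to 3148. In KPR restored the same ratio was 1593, with an interval of 286 to 62942, and both intervals are wide since *Nkx2-1* had so few fragments. The gastric factor was thus far above the lung factor per kilobase of transcript in both libraries.

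*Foxa2* (chr2:148042877-148046969, minus strand), the close relative of *Foxa1*, had 10.7 FPKM in KPR- against 16.1 FPKM in KPR restored. *Foxa1* exceeded it by 2.77 times in KPR- (interval 2.5 to 3.07) and by 2.0 times in KPR restored (1.83 to 2.18), and these intervals do not overlap. *Gata6* (chr18:11052064-11085635, plus strand), a zinc finger factor of lung, stomach and pancreas endoderm, had 9.30 FPKM in KPR- against 12.6 FPKM in KPR restored. All 4 factors were higher in the KPR restored library, by unequal amounts.

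The progenitor factors *Sox9* and *Sox2* lay far apart. *Sox9* (chr11:112782224-112787760, plus strand), which marks the distal tip progenitors of the embryonic lung, had 13.6 FPKM in KPR- against 29.6 FPKM in KPR restored. *Sox2* (chr3:34650405-34652461, plus strand), which marks the proximal airway lineage, had 0.834 and 0.791 FPKM, from about 34 and 33 fragments. *Sox9* thus exceeded *Sox2* by 16.3 times in KPR- (interval 11.6 to 23.6) and by 37.4 times in KPR restored (26.6 to 54.5). *Hmga2* (chr10:120361275-120476469, minus strand) was the most abundant of the 10 genes, with 186 FPKM in KPR- against 148 FPKM in KPR restored. This placed it above 98.2% and 97.6% of all genes.

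**Figure D1:**
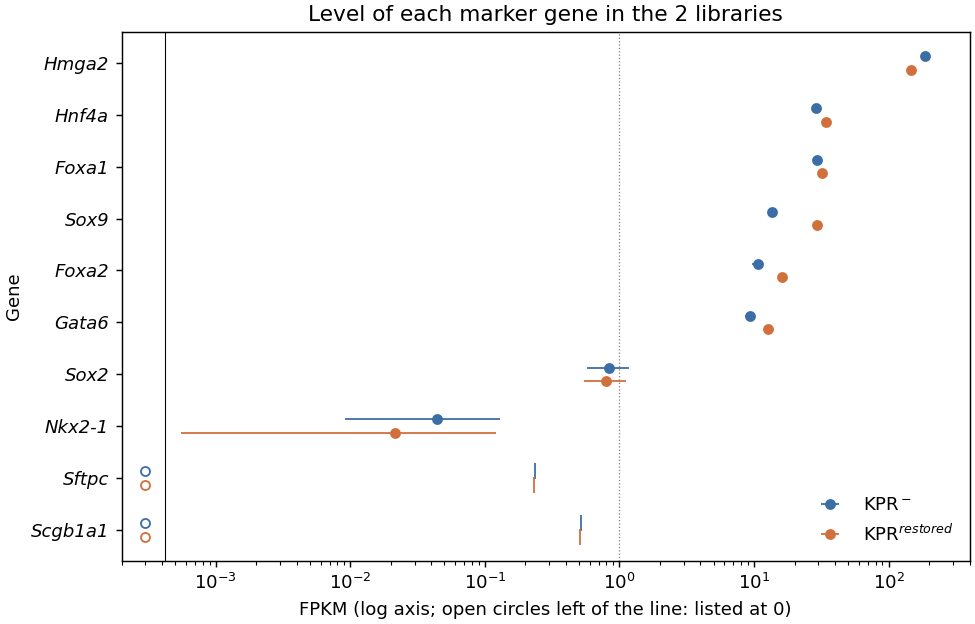
FPKM of each of the 10 genes (log axis) in the KPR- library (blue) and the KPR restored library (orange), 1 library each; bars are 95% counting intervals, open circles are genes listed at 0, and vertical ticks in their rows are the FPKM that 3 fragments would give. *Hmga2* stands at 186 and 148 FPKM, *Hnf4a*, *Foxa1*, *Sox9*, *Foxa2* and *Gata6* between 9.30 and 34.4 FPKM, and *Nkx2-1* at 0.0444 and 0.0216 FPKM.

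The order of the 8 genes listed above 0 differed between the libraries only where *Foxa1* and *Hnf4a* exchanged places, with *Nkx2-1* last in both at a level under its limit of 3 fragments. In KPR- the order was *Hmga2*, *Foxa1*, *Hnf4a*, *Sox9*, *Foxa2*, *Gata6*, *Sox2* and *Nkx2-1*. *Foxa1* and *Hnf4a* did not differ there beyond counting error, with a ratio of 1.02 and an interval of 0.964 to 1.09. In KPR restored *Hnf4a* exceeded *Foxa1* by 1.07 times (interval 1.01 to 1.13). *Sox9*, which stood 2.13 times below *Hnf4a* in KPR-, came within 1.09 times of *Foxa1* in KPR restored. The intervals of all other neighbours excluded 1 in both libraries, the closest being *Foxa2* over *Gata6* in KPR-, at 1.15 times (1.01 to 1.30).

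Between the libraries, 2 of the 10 genes were higher by 0.5 or more in KPR restored and 1 was lower by as much, against 13.8% of all genes higher and 12.9% lower. Over the 6 of the 10 that were expressed, the counts were 2 higher and 0 lower, against 12.1% and 9.29% of the 11231 expressed genes. The median difference of these 6 was 0.35. Counts this small over 10 genes do not set the group apart from the background.

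*Sox9* had the largest difference. It was 2.18 times higher in KPR restored, which gives a log2 difference of 1.13 with an interval of 1.03 to 1.23, from about 1164 and 2587 fragments. Only 2.23% of the expressed genes had a larger difference. *Foxa2* was 1.51 times higher, a log2 difference of 0.60 (0.42 to 0.77), and 8.81% of these genes exceeded it. *Gata6* was 1.36 times higher, a log2 difference of 0.44 whose interval of 0.29 to 0.59 spans the threshold. Of these 3, only the interval of *Sox9* lies wholly above 0.5.

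The remaining differences were smaller. *Hnf4a* was higher by 0.26 on the log2 scale (0.18 to 0.33) and *Foxa1* by 0.13 (0.04 to 0.22), so that *Hnf4a* lay close to the upper quartile of the expressed genes and *Foxa1* between their median and that quartile. *Hmga2* was the only 1 of the 6 that was lower, at 0.796 of its KPR- level, a log2 difference of -0.33 (-0.36 to -0.29), with 17.7% of the expressed genes below it. The counting intervals of all 6 excluded 0, and those of *Foxa1*, *Hnf4a* and *Hmga2* lay wholly inside the threshold. The share of all expressed genes whose interval excludes 0 was not computed, so this count does not set the 6 apart. With many fragments even a small difference can exclude 0, as for *Hmga1* at -0.05 (-0.09 to -0.02). *Sox2* had a difference of -0.08 with an interval of -0.81 to 0.66, which runs past the threshold on both sides, so no difference was detectable at this depth. The gene lower by 0.5 or more was *Nkx2-1*, whose difference of -0.89 rests on about 3 fragments and 1 fragment and has an interval of -6.75 to 2.60.

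**Figure D2:**
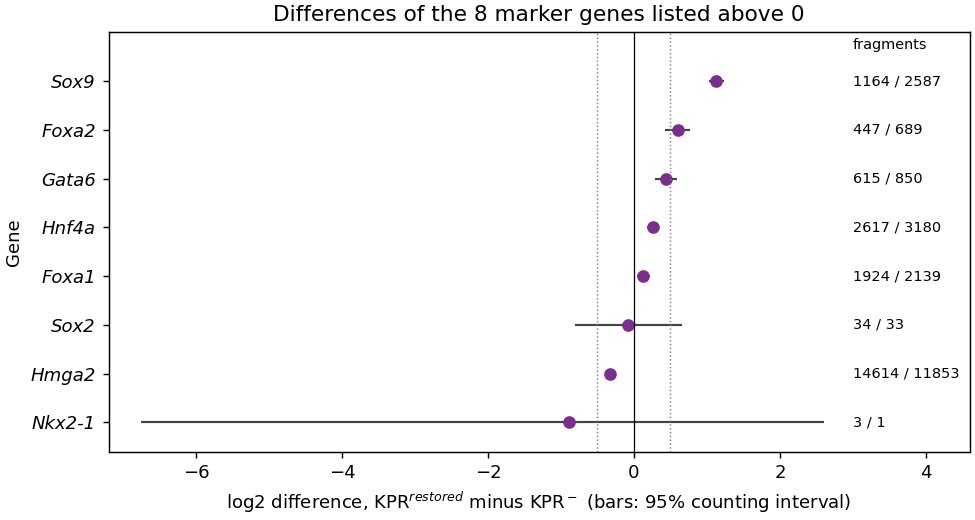
Log2 difference (KPR restored minus KPR-) of the 8 genes with fragments in the libraries; bars are 95% counting intervals, dotted lines the threshold of 0.5, and the numbers the estimated fragments in KPR- and KPR restored. *Sox9* stands at 1.13 with its whole interval above 0.5, and the interval of *Nkx2-1* runs from -6.75 to 2.60.

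**Figure D3:**
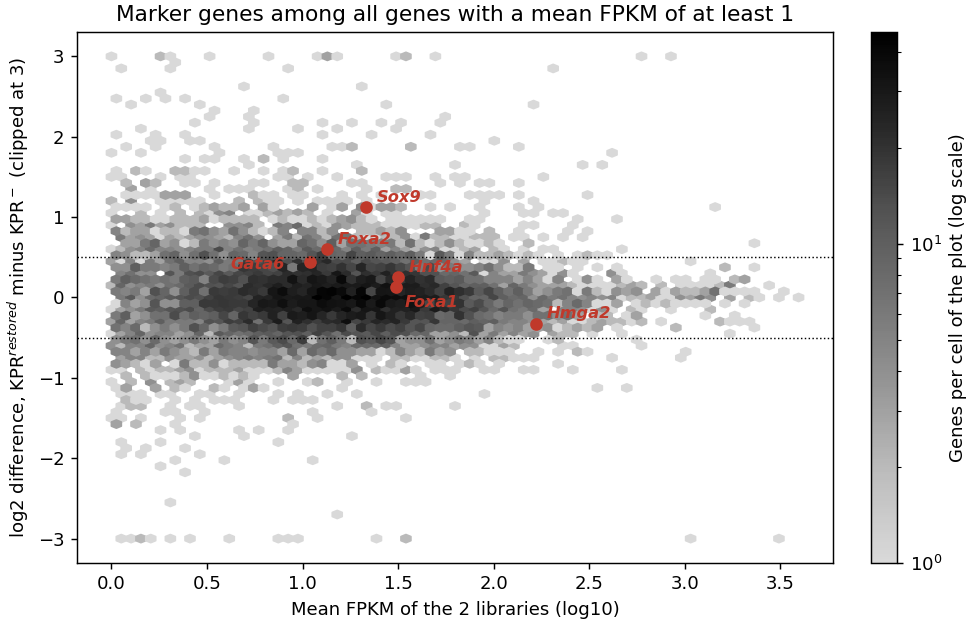
The 6 expressed marker genes (red) over all 11231 expressed genes (grey shading by number of genes, log scale), by mean FPKM (log10) and log2 difference (KPR restored minus KPR-, clipped at 3 either way). *Sox9* lies above the dense shading, with 2.23% of the genes higher still, *Foxa2* and *Gata6* above the center, and *Hmga2* below it among the abundant genes.

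Differences fell with transcript length over the expressed genes. In 5 classes of rising transcript length, their median difference was 0.0869, 0.0726, 0.0428, -0.0221 and -0.15. The first and last medians lie further apart than the *Foxa1* difference of 0.13 lies from 0. *Sox9*, *Hnf4a* and *Hmga2* are in class 4, *Foxa1* and *Gata6* in class 3 and *Foxa2* in class 2. Annotated genes on the other strand overlap some of the 10. The overlapping *1010001N08Rik* of *Gata6* had 1.15 FPKM in KPR- against 2.80 FPKM in KPR restored, and *9230105E05Rik* of *Hmga2* had 0.627 and 0.609 FPKM. The libraries were directional, but whether strand was used in counting is not given in the sources used here, so reads of such overlapping parts may not be told apart.

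The relatives of the 10 genes were examined as families. Of the 3 FOXA genes, *Foxa3* had 0.275 FPKM in KPR- against 0.826 FPKM in KPR restored, about 11 and 34 fragments, which is a log2 difference of 1.57 (0.57 to 2.72) from a low level, while the other two were expressed, with 1 (*Foxa2*) higher, 0 lower and a median difference of 0.36. 5 of the 6 GATA genes were expressed, of which 2 were higher, 1 was lower and 2 stayed within the threshold, with a median difference of 0.48. *Gata4*, a foregut and heart factor, had 1.08 FPKM in KPR- against 2.01 FPKM in KPR restored (log2 difference 0.90). *Gata3* had 2.43 and 4.36 FPKM (0.84), and *Gata5* had 3.62 and 2.44 FPKM (-0.57). *Gata6* was the most abundant GATA gene in both libraries.

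5 of the 19 SOX genes were expressed, and 2 of these were higher and 0 lower, with a median difference of -0.10. The higher ones were *Sox9* and *Sox4*. *Sox4*, a factor of many progenitor and carcinoma cells, was the most abundant SOX gene, with 55.9 FPKM in KPR- against 83.5 FPKM in KPR restored, which gives a log2 difference of 0.58 (0.53 to 0.63). *Sox11*, *Sox12* and *Sox13* had differences of -0.47, -0.10 and -0.11.

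The other alveolar genes were examined beside *Sftpc*. Of 12 alveolar type 2 genes, 6 were listed at 0 in both libraries, among them the surfactant genes *Sftpa1*, *Sftpb* and *Sftpc*, and 4 were expressed. Of these 4, 0 were higher and 1 was lower, with a median difference of -0.26. They included *Lpcat1*, a phospholipid acyltransferase gene that other cells also use, with 25.3 FPKM in KPR- against 17.1 FPKM in KPR restored (-0.56). The lipid transporter gene *Abca3* had 18.2 and 14.6 FPKM (-0.32), and *Cebpa* had 13.9 and 12.1 FPKM (-0.20). *Etv5*, a target of FGF and RAS signals, had 8.84 and 11.8 FPKM (0.41).

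Of 10 alveolar type 1 genes, 4 were expressed, with 1 higher, 1 lower and a median difference of -0.47. *Cav1*, which encodes caveolin and is expressed in many cell types, had 184 FPKM in KPR- against 111 FPKM in KPR restored (-0.72), and the water channel gene *Aqp5* had 146 and 106 FPKM (-0.46). *Emp2*, which encodes a membrane protein, had 14.3 and 20.3 FPKM (0.50). *Rtkn2*, the remaining expressed gene, had 4.22 and 3.04 FPKM (-0.47). The genes of the list that were not expressed, *Ager*, *Pdpn*, *Hopx*, *Clic5*, *Akap5* and *Cldn18*, had at most 1.1 FPKM in either library. The list was thus divided between abundant and low genes.

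Airway genes were mostly low. Of 9 club and secretory genes, 5 were listed at 0 in both libraries and only *Aldh1a1*, an aldehyde dehydrogenase gene, was expressed, with 1.63 FPKM in KPR- against 2.44 FPKM in KPR restored (0.58). *Muc5b* had 0.254 and 0.138 FPKM. Of 7 ciliated cell genes, only *Foxj1*, the regulator of motile cilia, was expressed. It had 2.78 FPKM in KPR- against 0.656 FPKM in KPR restored, which gives a log2 difference of -2.07 (-2.66 to -1.54) from about 147 and 35 fragments. *Tppp3* of the same list had 1.12 and 0.766 FPKM. Of 6 basal cell genes, 2 were expressed, with a median difference of -0.16, and the basal cell regulator *Trp63* was listed at 0 in both libraries. The keratin gene *Krt14* had 2.49 and 3.59 FPKM (0.53) and the neurotrophin receptor gene *Ngfr* had 3.05 and 1.69 FPKM (-0.84).

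The gastric and intestinal list contains *Hnf4a*. 12 of its 21 genes were expressed, beside 11231 of all 23183 genes, so the list does not stand out by this share. Its summed FPKM was 135 in KPR- and 155 in KPR restored, below the 350 and 242 of the alveolar type 1 list. Of the 12 expressed genes, 2 were higher, 1 was lower and 9 stayed within the threshold, with a median difference of 0.15. *Lgals4*, which encodes a galectin of the gut lining, was the most abundant, with 38.8 FPKM in KPR- against 45.5 FPKM in KPR restored (0.23, interval 0.11 to 0.35). *Tff1*, a trefoil peptide gene of gastric mucus cells, had 3.85 and 6.52 FPKM (0.76, interval 0.18 to 1.35), from about 41 and 71 fragments. *Pdx1*, a factor of pancreas, antral stomach and duodenum, had 3.09 and 1.49 FPKM (-1.05, interval -1.51 to -0.62). *Cdx2*, the intestinal homeobox gene, had 6.63 and 6.93 FPKM, and *Anxa10*, a gastric annexin gene, had 22.2 and 31.2 FPKM (0.49). The gastric secretory genes *Gkn1*, *Gkn2*, *Tff2* and *Muc5ac* had at most 0.394 FPKM in either library.

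*Hmga2* was also read beside other embryonic genes. Of 11 listed genes, 6 were expressed, with 0 higher and 1 lower and a median difference of -0.22. *Hmga1*, its paralog, had 292 FPKM in KPR- against 282 FPKM in KPR restored, which gives a log2 difference of -0.05 (-0.09 to -0.02). The RNA-binding protein genes *Igf2bp1*, *Igf2bp2* and *Igf2bp3* read 19.1, 29.1 and 10.2 FPKM in KPR-, with differences of -0.17, 0.11 and -0.27. *Dlk1*, a fetal Notch-like ligand gene, had 1.5 and 0.831 FPKM (-0.85, interval -1.26 to -0.45). *Lin28a* and *Lin28b*, the fetal inhibitors of let-7 maturation, had at most 0.229 FPKM in either library.

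**Figure D4:**
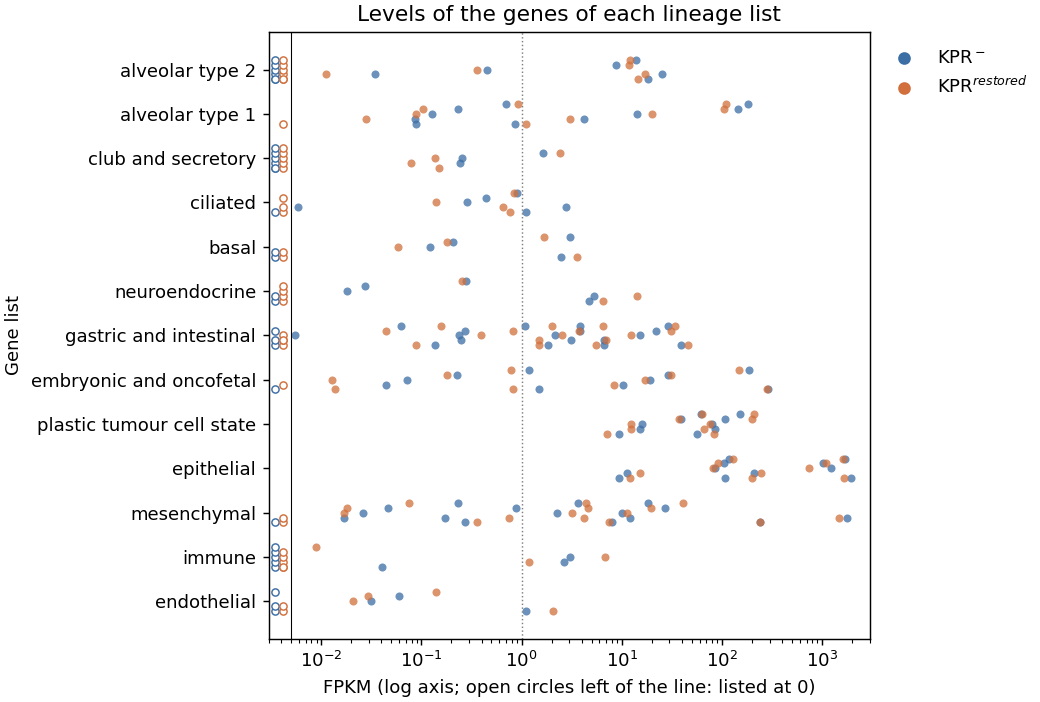
FPKM (log axis) of every gene of 13 lineage lists in KPR- (blue) and KPR restored (orange), 1 point per gene and library; open circles left of the line are genes listed at 0 and the dotted line is 1 FPKM. Club and secretory, immune and endothelial genes lie mostly under 1 FPKM or at 0, while all genes of the epithelial and plastic tumour cell lists lie above it.

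Genes of a plastic state of *K-Ras* tumor cells were all expressed, 10 of 10, beside 11231 of all 23183 genes. The list was chosen with earlier results of these data known, so this count is no evidence of such a state. Past the threshold, 2 of the 10 genes were higher and 0 lower, and the median difference was -0.08. *Cldn4*, which encodes a tight junction protein, had 107 FPKM in KPR- against 202 FPKM in KPR restored (0.92, interval 0.86 to 0.98). *Sox4* was the other, and *Plaur*, the urokinase receptor gene, had 152 and 210 FPKM (0.46).

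Of 21 lung development regulators, *Nkx2-1* among them, 13 were expressed, with 1 higher, 1 lower, 11 within the threshold and a median difference of 0.07. *Id2*, a helix-loop-helix inhibitor found with *Sox9* in distal tip progenitors, had 93.6 FPKM in KPR- against 36.6 FPKM in KPR restored, which gives a log2 difference of -1.36 (-1.47 to -1.24), opposite in sign to that of *Sox9*. *Klf5*, a factor of endodermal epithelia, had 29.7 and 43.1 FPKM (0.54). *Etv4*, a target of FGF signals in the distal lung, had 41.8 and 40.9 FPKM (-0.03, interval -0.12 to 0.06). *Tbx4*, *Tbx5* and *Shh* were listed at 0 in both libraries.

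Epithelial genes were abundant. All 11 of them were expressed, beside 11231 of all 23183 genes. Of the 11, 1 was higher (*Cldn4*), 1 was lower (*Krt7*) and 9 stayed within the threshold, with a median difference of 0.11. *Krt8*, a keratin of simple epithelia, had 1711 FPKM in KPR- against 1631 FPKM in KPR restored, and its partner *Krt18* had 1931 against 1676 FPKM. *Krt7* had 1229 and 743 FPKM, a log2 difference of -0.73. Across all 17 lists, 86 of 177 different genes were expressed, of which 16 were higher and 11 were lower by 0.5 or more, beside 12.1% higher and 9.29% lower over all expressed genes. Without the 6 marker genes among them, the counts were 14 and 11 of 80.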

How the data were processed

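Poly(A) RNA of KPR- and KPR restored cells was sequenced as 1 library each with a directional kit and paired ends. Per the methods and the submitters' processing notes, the authors trimmed the reads, mapped them using TopHat (mm10) and deposited FPKM values estimated using Cufflinks, with geometric normalization of read counts in EdgeR also named. Versions and the annotation are not given in the sources used here. The tables hold 23183 genes each and give totals of 521340 and 523647 FPKM.

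Groups were taken from the sample records. Differences used log2(FPKM + 0.005), which leaves the change of genes near the pseudocount understated, and a threshold of 0.5. GENCODE M21 (GRCm38) gave positions and transcript lengths, with 22148 symbols matched directly, 656 through a synonym and 379 unmatched. Depth and a mean fragment length of 214 bases were fitted so that low values of genes of a single transcript length fell on whole fragments. Of 1640 and 1589 values with 0.5 to 5.5 estimated fragments, 79.0% and 80.1% were whole to within 0.1, against 20% expected by chance. The depths and the fragment length were chosen to make these shares largest, and the 20% does not allow for that choice. The contrast is thus not an independent check of the depths. Fragments were computed with the longest transcript, among those with a RefSeq counterpart where any has one, and intervals are exact (Clopper-Pearson for ratios, Poisson for levels), at 95%. The fit and the intervals were also run on simulated libraries. These were drawn with the same transcript lengths and with counting error alone, so they cannot check any other source of error.

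The 10 genes, 17 context lists and motifs were chosen with earlier results of these data known. Named genes were the 10, *Runx3*, and in each list the 2 with the highest mean FPKM and the 2 with the largest difference of log2(FPKM + 1) at a mean FPKM of at least 1. Any further gene is named by choice after its values had been seen. Alternatives were pseudocounts of 0.1 and 1, TPM, upper-quartile and median scaling, filters, a threshold of 1 and, for counting intervals, the shortest coding transcript that has 350 bases or more. A correction for transcript length was chosen after seeing the data. The scripts ran under Python 3.11.15 with scipy 1.17.1 for the intervals, pandas 2.3.3 and numpy 2.4.6 for the tables and matplotlib 3.10.9 for the plots.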

Additional observations from a re-analysis of the deposited data

How the results depend on the processing

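The differences of the 8 genes listed above 0 kept their sign under all 6 alternatives of pseudocount, scaling, centring and length correction, the last chosen after seeing the data, and moved by less than their counting error. *Sox9* ranged from 1.07 to 1.15, *Foxa2* from 0.53 to 0.59, *Gata6* from 0.40 to 0.44, *Hnf4a* from 0.22 to 0.28, *Foxa1* from 0.08 to 0.13, *Hmga2* from -0.36 to -0.31, *Sox2* from -0.15 to -0.03 and *Nkx2-1* from -0.96 to -0.03. The 2 genes higher by 0.5 or more became 1 (*Sox9*) at a threshold of 1. The 1 lower gene, *Nkx2-1*, became 0 with a pseudocount of 0.1 or 1, at a mean FPKM of at least 1, or at a threshold of 1. Of the listed genes, the 16 higher and 11 lower became 29 and 46 with no filter on mean FPKM, and 9 and 5 at a mean FPKM of at least 5, because these filters change which genes are counted. Scaling and centring put the median of the expressed genes between -0.0257 and 0.0022, beside 0.0086 in the main setting. With the shortest coding transcript, the intervals of the 8 genes kept their side of 0. No paired analysis was possible because each condition has 1 library, and no library could be left out. Depth limits *Sox2*, *Nkx2-1*, *Sftpc* and *Scgb1a1*.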

Other observations

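Markers of other cell types were mostly at or near 0 in these libraries. Of 7 neuroendocrine genes, 2 were expressed, with a median difference of 0.94. *Insm1*, a zinc finger factor of endocrine cells, had 5.30 FPKM in KPR- against 14.1 FPKM in KPR restored, which gives a log2 difference of 1.41 (interval 1.23 to 1.60) from about 335 and 907 fragments. *Uchl1* had 4.77 and 6.56 FPKM (0.46). Of 8 immune genes, 4 were listed at 0 in both, and the pan-leukocyte gene *Ptprc* reached at most 0.00892 FPKM. *Cd68*, a lysosomal protein gene, had 3.08 and 6.78 FPKM (1.13), and *Csf1r* had 2.68 and 1.19 FPKM (-1.17), the 2 expressed genes of the list, whose median difference was -0.02. Of 6 endothelial genes, *Kdr* alone was expressed, with 1.1 and 2.05 FPKM (0.89). *Cdh5* was listed at 0 in KPR- and had 0.141 FPKM in KPR restored, from about 12 fragments. The summed FPKM of the immune list was 5.81 and 7.98, and that of the endothelial list 1.19 and 2.24. Whether such cells have a part in any difference was not tested.

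Mesenchymal genes were divided. 10 of 17 were expressed, with 2 higher, 1 lower and a median difference of 0.07. *Vim*, which encodes vimentin, had 1777 FPKM in KPR- against 1464 FPKM in KPR restored (-0.28), and *Fn1*, which encodes fibronectin, had 242 and 239 FPKM (-0.02). *Snai2*, a repressor of epithelial genes, had 0.887 and 4.64 FPKM (2.38, interval 1.86 to 2.95), *Twist2*, a factor of mesenchymal cells, had 18.5 and 41.2 FPKM (1.16), and *Col1a1* had 12.2 and 4.21 FPKM (-1.53). The 7 genes of the list that were not expressed had at most 0.742 FPKM in either library. Of these, the fibroblast gene *Dcn* had 0.173 and 0.742 FPKM (2.07, interval 0.79 to 3.67) from about 6 and 26 fragments, *Pdgfra* had 0.273 and 0.363 FPKM, *Acta2* had 0.232 and 0.0752 FPKM, and *Col1a2*, *Col3a1*, *Pdgfrb* and *Lum* had at most 0.0463 FPKM.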
